A study of Mus musculus with 3 samples.

Results

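The cell cycle set held 40 of the 27998 genes in the count tables of mouse dorsal skin, chosen by gene symbol. Of these, 15 serve DNA replication and 25 serve mitosis, and every symbol matched a row of the tables. The skin came from C57BL/6 mice of 3 ages, neonatal, 3 weeks and 2 months, and the design text names the groups neonatal, young adult and mature adult. The labels name no treatment and no genetic change in any group. There was 1 single-cell RNA sequencing library per age, from minced biopsies digested with collagenase D and DNase1 and captured in droplets at the 3′ ends of transcripts. How many mice entered a library is not given, and no label says that the libraries came from separate animals, so no difference between ages was tested.

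A cell that prepares to divide copies its genome in S phase and separates the copies in mitosis. The minichromosome maintenance genes (Mcm2 to Mcm7) encode the helicase that opens DNA, Cdc6 loads it, Gins2 belongs to the active helicase, Pcna is the sliding clamp of DNA polymerase, and Rrm1, Rrm2 and Tyms make nucleotides. Ccne1 and Ccne2 are the cyclins that start S phase, and Uhrf1 keeps DNA methylation through replication. Cdk1 with the cyclins Ccna2, Ccnb1 and Ccnb2 drives entry into mitosis, Aurka, Aurkb, Plk1, Bub1 and Bub1b are kinases of the spindle and its checkpoint, Cdc20 and Ube2c direct the destruction of cyclins at its end, and Top2a untangles the chromosomes. In skin, dividing keratinocytes lie in the basal layer and the growing hair follicle, cells of the suprabasal layers have stopped dividing, and dermal fibroblasts divide around birth and become largely quiescent in the adult.

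Depth is counted in unique molecular identifiers (UMIs), which mark single transcripts. The neonatal library held 84086755 UMIs over 8452 barcodes, the 3 week library 113874172 over 10226 and the 2 month library 98432611 over 10190. After filtering to barcodes with at least 300 genes, at least 500 UMIs and at most 10% mitochondrial UMIs, 7911, 8900 and 9332 cells remained, and the median depth was 8685, 11142.5 and 8529.5 UMIs. Between 23 and 31 barcodes were shared by any pair of libraries. Cells were put in classes by the share of a class's marker genes with a UMI, with no clustering, so each class is "like" its name only by its markers. The fibroblast-like gate (Pdgfra, Dcn, Lum, Dpt, Col1a2, Col3a1 and Col6a3) took 6454, 5664 and 4857 cells, of which 426, 143 and 243 had just the 4 markers it needed. The keratinocyte-like gate took 269, 1253 and 1583 cells, of which 8, 11 and 55 were at its minimum of 5 markers. Expression is given as CPM, the UMIs of a gene per 1000000 UMIs of all genes, summed over the cells of a class in a library, and fewer expressing cells cannot be told apart from less RNA per cell in such a sum. Intervals are 95% and cover counting error only.

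Promoter sequences are shown first for 3 mitosis and 3 replication genes whose levels are followed below, to show the motifs of cell cycle promoters that lie in them. The cell cycle homology region (CHR, searched as TTTGAA or TTCGAA) and CCAAT boxes are known from promoters of mitosis genes, and E2F sites (searched as TTTCCCGC, TTTGGCGC, TTTCGCGC or TTTGCCGC) from promoters of replication genes. All were searched on both strands in the 250 bases before the annotated start (RefSeq, GRCm38.p6), and matches are in capitals. The 250 bases lie at chr10:69352913-69353162 on the minus strand for Cdk1, at chr11:99024190-99024439 on the minus strand for Top2a and at chr2:164769679-164769928 on the plus strand for Ube2c. They lie at chr1:128359706-128359955 on the minus strand for Mcm6, at chr8:75109259-75109508 on the plus strand for Mcm5 and at chr7:38107491-38107740 on the minus strand for Ccne1. Each is written 5′ to 3′ on the gene's strand and ends at the base before the start.
Cdk1: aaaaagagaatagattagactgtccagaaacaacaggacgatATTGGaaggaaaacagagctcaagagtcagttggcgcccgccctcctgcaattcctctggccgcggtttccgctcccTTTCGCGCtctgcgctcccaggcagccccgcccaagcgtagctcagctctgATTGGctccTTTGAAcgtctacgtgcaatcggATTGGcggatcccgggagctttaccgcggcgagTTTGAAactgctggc
Top2a: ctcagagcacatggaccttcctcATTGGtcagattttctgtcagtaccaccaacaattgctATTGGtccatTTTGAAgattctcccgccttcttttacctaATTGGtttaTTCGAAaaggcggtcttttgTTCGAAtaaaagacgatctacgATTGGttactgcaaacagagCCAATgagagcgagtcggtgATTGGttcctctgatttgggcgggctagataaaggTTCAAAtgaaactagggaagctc
Ube2c: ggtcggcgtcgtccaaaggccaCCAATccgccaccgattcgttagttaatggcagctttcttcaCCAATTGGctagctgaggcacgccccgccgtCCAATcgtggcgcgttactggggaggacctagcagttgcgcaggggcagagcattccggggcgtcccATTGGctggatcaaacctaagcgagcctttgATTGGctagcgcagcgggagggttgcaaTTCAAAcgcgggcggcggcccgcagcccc
Mcm6: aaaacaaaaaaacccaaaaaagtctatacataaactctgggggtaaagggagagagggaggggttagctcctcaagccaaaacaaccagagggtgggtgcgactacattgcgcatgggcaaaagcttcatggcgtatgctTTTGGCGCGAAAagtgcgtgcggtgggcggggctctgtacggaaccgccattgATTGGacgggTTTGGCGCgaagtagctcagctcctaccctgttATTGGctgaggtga
Mcm5: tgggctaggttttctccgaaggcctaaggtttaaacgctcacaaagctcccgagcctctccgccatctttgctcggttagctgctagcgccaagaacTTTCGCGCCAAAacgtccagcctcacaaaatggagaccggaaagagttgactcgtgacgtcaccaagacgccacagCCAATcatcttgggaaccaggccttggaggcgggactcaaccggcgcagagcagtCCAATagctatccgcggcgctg
Ccne1: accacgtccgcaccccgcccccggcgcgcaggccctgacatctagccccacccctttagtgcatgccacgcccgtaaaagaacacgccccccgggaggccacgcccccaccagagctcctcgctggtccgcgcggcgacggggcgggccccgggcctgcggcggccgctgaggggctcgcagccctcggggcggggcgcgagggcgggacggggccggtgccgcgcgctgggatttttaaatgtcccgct

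Top2a held 6 CCAAT and 4 CHR matches, Ube2c 6 CCAAT matches and 1 CHR match, and Cdk1 3 CCAAT, 2 CHR and 1 E2F match. Mcm6 held 2 CCAAT and 3 E2F matches, Mcm5 2 CCAAT and 2 E2F matches, and Ccne1 held none of the letters searched in this window. A pair of CCAAT matches overlaps in Ube2c, and a pair of E2F matches overlaps in Mcm6 and in Mcm5. The RefSeq table held promoters of 32 of the 40 genes. A CHR match was present in 8 of 20 mitosis genes (40%: Bub1b, Ccnb2, Cdc20, Cdk1, Kif11, Mki67, Top2a and Ube2c), in 2 of 12 replication genes (16.7%) and in 17.1% of all 32851 promoters of the same length. At least 2 CCAAT matches were present in 14 of 20 mitosis genes (70%), 6 of 12 replication genes (50%) and 10.1% of all promoters. An E2F match was present in 1 of 20 mitosis genes (5%), 5 of 12 replication genes (41.7%) and 1.86% of all promoters. These are matches of letters in a window and do not show that a factor binds there.

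Across the classes, keratinocyte-like cells carried more of these transcripts than fibroblast-like cells, and skeletal muscle-like cells at 3 weeks carried the most of all classes with 50 or more cells. Summed over the 15 replication genes, fibroblast-like cells held 342, 187 and 95.4 CPM in the neonatal, 3 week and 2 month libraries, and keratinocyte-like cells held 477, 339 and 236 CPM. Summed over 23 mitosis genes (without Stmn1 and Cks2, which several other classes also carried at high levels), fibroblast-like cells held 520.5, 401 and 58.6 CPM and keratinocyte-like cells 646, 905 and 439 CPM. The keratinocyte-like sums lay above the fibroblast-like sums in every library, and the ratio was widest at 2 months.

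**Figure D1:**
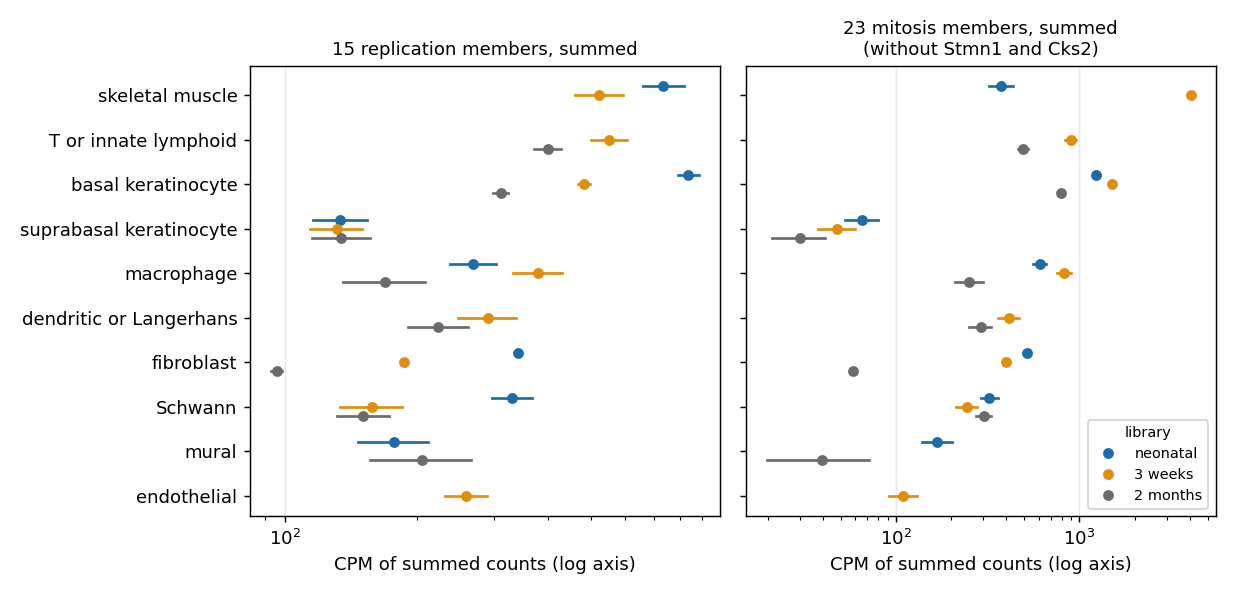
Summed CPM (log axis) of the 15 replication genes and of 23 mitosis genes (without Stmn1 and Cks2) by cell class and library, with bars for counting error only. The 3 week skeletal muscle-like cells reach 4041 CPM for mitosis, while suprabasal-like cells lie between 29.8 and 65.2 CPM.

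Among keratinocyte-like cells the levels were higher in basal-like than in suprabasal-like cells. Basal-like cells (Krt5, Krt14, Krt15, Col17a1, Trp63 and Itga6; 83, 601 and 631 cells) held 837, 483 and 311 CPM of replication transcripts and 1236, 1507 and 797 CPM of the 23 mitosis genes. Suprabasal-like cells (Krt1, Krt10, Lor and others; 60, 72 and 73 cells) held 134, 131 and 134 CPM of replication and 65.2, 47.6 and 29.8 CPM of mitosis transcripts. Of the 40 genes, 38 were higher in basal-like than suprabasal-like cells in each library, against 46.2% of all measured genes, the exceptions being Cdc6 and Rrm2 at 2 months. Top2a stood at 116, 112 and 72.7 CPM in basal-like and 8.65, 11.8 and 6.28 CPM in suprabasal-like cells. Rrm2, the regulated subunit of ribonucleotide reductase, stood at 80.7, 36.2 and 22.2 CPM in basal-like cells and at 6.65, 34.6 and 31.4 CPM in suprabasal-like cells. In the suprabasal-like cells 21 of its 40 UMIs at 2 months and 20 of its 56 UMIs at 3 weeks came from 1 cell. The gate called basal-like was led by genes other than its markers in each library. In the neonatal library Tagln, Acta2 and Myl9, which mark the dermal sheath here, were among its leading 10. At 3 weeks its leading 10 held Lhx2, a marker of the lower follicle here, and Cenpa and Ccnb2 of the set itself. The part of follicle cells in its values was not tested, and the values are not compared between ages. A further 123, 477 and 629 keratinocyte-like cells met no single subtype, and held 463, 260.2 and 219 CPM of replication and 632, 584 and 324 CPM of mitosis transcripts. They carried 5115, 9948 and 8570 UMIs of the 40 genes, against 4545, 22332 and 12334 in the basal-like cells, so a large part of the transcripts lay outside the basal-like gate.

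The fit across all genes (edgeR's quasi-likelihood test on summed counts, with the library as a block) called 11 of the 40 genes higher and 0 lower in keratinocyte-like than in fibroblast-like cells at an adjusted p under 0.05, against 20.6% of all tested genes higher and 24.2% lower. All 40 fold changes were above 0, and their median log2 fold change was 0.98, against 0.02 over all genes. By CPM, 30 of the 40 genes were higher in keratinocyte-like cells in each library, against 45.7% of measured genes. Of the 11 called, 5 were replication and 6 mitosis genes.

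Uhrf1 had the highest fold change, at 37.7, 17.6 and 9.30 CPM in keratinocyte-like and 12.6, 5.73 and 1.13 CPM in fibroblast-like cells. Its log2 fold change was 1.95 (SE 0.373, edgeR adjusted p = 0.00206). Cks2, which encodes a small subunit of cyclin-dependent kinases, stood at 158, 142 and 136 against 82.4, 47.4 and 13.5 CPM (log2 1.80, SE 0.418, edgeR adjusted p = 0.00618). Both were higher in keratinocyte-like cells in 3 of 3 libraries. The values of the classes did not overlap for Cks2 and overlapped for Uhrf1, whose level was lower in each older library in both classes.

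Cdca8, a subunit of the chromosomal passenger complex, stood at 35.5, 55.3 and 22.97 against 21.6, 16.2 and 2.41 CPM (log2 1.72, edgeR adjusted p = 0.00741). Ccnb1 stood at 23.7, 38.8 and 18.7 against 14.6, 10.5 and 2.12 CPM (log2 1.69, edgeR adjusted p = 0.0207). Mki67, the proliferation marker that coats mitotic chromosomes, stood at 38.9, 48.3 and 25.2 against 21.9, 26.0 and 3.31 CPM (log2 1.31, edgeR adjusted p = 0.0267). Each was higher in keratinocyte-like cells in 3 of 3 libraries, and the classes overlapped for Mki67 alone.

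Among replication genes Mcm5 (32.1, 19.1 and 7.72 against 17.8, 7.59 and 1.22 CPM), Mcm2 and Mcm6 (45.6, 28.8 and 22.2 against 36.9, 11.4 and 5.96 CPM) had log2 fold changes of 1.39, 1.10 and 0.99 (edgeR adjusted p = 0.0190, 0.0136 and 0.0219). Pcna differed least among the called genes, at 64.8, 54.6 and 59.3 against 39.97, 30.9 and 26.4 CPM (log2 0.74, SE 0.269, edgeR adjusted p = 0.0456). Top2a (log2 1.36, edgeR adjusted p = 0.0475) and Bub1b (log2 1.24, edgeR adjusted p = 0.0178) complete the 11.

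Members that missed the threshold include Stmn1, which encodes a microtubule-destabilising protein and had a log2 fold change of 1.62 (edgeR adjusted p = 0.0989). Rrm2 had 0.94 (adjusted p = 0.0849), Cdk1 0.88 (0.248), Birc5, the survivin gene, 0.73 (0.255) and Ccne1 0.56 (0.349). The smallest fold changes were those of Cdc6 at 0.07 (adjusted p = 0.947), Mcm3 at 0.41 (0.367) and Tyms at 0.48 (0.139). The calls rest on few libraries. Without the neonatal library 30 genes were higher, without the 3 week library 1 and without the 2 month library 2. Without the library as a block edgeR called 0. Over all genes these fits called 3626 of 14102, 909 of 12788, 1292 of 12756 and 1888 of 12668 higher, in the same order.

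Other cell cycle genes were called in both directions, against the 20.6% of all tested genes called higher and 24.2% lower. Of 20 tested replication genes outside the set 6 were higher and 0 lower in keratinocyte-like cells, among them Gmnn (log2 2.32), the geminin gene that restrains repeated replication, and Prim1 (1.72), a primase subunit. Of 36 further mitosis genes 8 were higher and 0 lower, among them the checkpoint kinase gene Ttk (2.19), the kinesin gene Kif4 (1.85), the spindle midzone gene Prc1 (1.80) and the phosphatase gene Cdc25c (1.79). Of 13 genes of the RB, E2F and DREAM factors, which switch these genes on and off, 4 were higher, including E2f2 (2.56) and E2f8 (2.04), and E2f1 was lower (-1.27). Of 6 inhibitors of cyclin-dependent kinases, Cdkn2b was higher (2.57) and Cdkn1c (-3.86) and Cdkn2c (-0.93) were lower. Ccnd3 (-1.01) was lower among the 6 cyclins and kinases that act before S phase.

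Macrophage-like cells numbered 74, 121 and 121. Most of the set was higher in them than in fibroblast-like cells at 3 weeks and 2 months, but not in the neonatal library. By CPM 15, 36 and 32 of the 40 genes were higher, and 14 were higher in each library. The share of all genes was not counted for this. The same fit called 5 of 40 genes higher and 2 lower, against 15% of all tested genes higher and 20% lower, so the calls were no more frequent than among all genes. Of the 40 fold changes 33 were above 0, and their median log2 was 0.57 against -0.22 over all genes. Cdc6 stood at 7.23, 45.6 and 25.3 CPM in macrophage-like and 4.11, 2.51 and 2.44 CPM in fibroblast-like cells (log2 3.04, SE 0.812, edgeR adjusted p = 0.0160). Its macrophage-like values come from 7, 29 and 13 UMIs in 7, 25 and 13 cells, so they were spread over many cells.

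Pcna stood at 56.8, 121 and 70.0 CPM (log2 1.22, edgeR adjusted p = 0.00798), and Cenpa, Mki67 and Bub1b had log2 fold changes of 1.69, 1.57 and 1.53. Rrm2 was lower, at 2.07, 7.87 and 0 CPM, from 2, 5 and 0 UMIs (log2 -2.35, SE 0.658, edgeR adjusted p = 0.0199). Tyms, thymidylate synthase, was lower at 15.5, 11.02 and 5.83 against 27.3, 30.6 and 11.1 CPM (log2 -1.09, edgeR adjusted p = 0.0215). Without the neonatal, the 3 week or the 2 month library 5, 1 and 1 genes were higher, and 1 was lower each time. Over all genes these fits called 1867 of 14102, 850 of 12788 and 1305 of 12756 higher and 2731, 1027 and 1610 lower.

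Schwann-like cells (104, 228 and 411 cells), the glia of skin nerves, stood apart by Stmn1. It stood at 380, 1188 and 1519 CPM there against 209, 93.0 and 23.9 CPM in fibroblast-like cells (log2 3.39, SE 0.812, edgeR adjusted p = 0.0128). It was detected in 75 of 104, 211 of 228 and 380 of 411 Schwann-like cells, so it was not held by a few of them. Tyms was lower (log2 -1.02, edgeR adjusted p = 0.0258), and these were the only calls among the 40 genes, against 12% of tested genes higher and 13.8% lower. Without the neonatal library 2 genes were higher and 2 lower, without the 3 week library 0 and 0, and without the 2 month library 0 and 1. Over all genes these fits called 2205 of 14102, 275 of 12788 and 547 of 12756 higher and 2864, 373 and 608 lower.

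Skeletal muscle-like cells (Myod1, Myf5, Pax7, Des, Chodl and Cdh15) were few, at 60, 54 and 44 cells, with 29, 10 and 7 of them at the minimum of 3 markers, and gave no main test because the 2 month library held under 50. Their mitosis sum stood at 374 CPM in the neonatal library (interval 319.8 to 434) and 4041 CPM at 3 weeks (3863 to 4224), while the replication sum stood at 734 and 524 CPM. The highest level over the 24 class and library profiles with at least 50 cells was found in the 3 week skeletal muscle-like cells for 22 of the 25 mitosis genes and for 1 of the 15 replication genes. The share of all genes that were highest in that profile was not counted. Ube2c stood at 15.3, 696 and 102 CPM and Top2a at 52.5, 357 and 112 CPM. At 3 weeks the 335 Ube2c UMIs came from 20 of 54 cells and the 172 Top2a UMIs from 15 of 54.

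Ccne1 showed the opposite order, at 197, 20.8 and 0 CPM, from 90 UMIs in 33 of 60 neonatal cells and 10 UMIs in 9 of 54 cells at 3 weeks. Between these libraries 28 of 38 measured genes stood 2-fold or more higher at 3 weeks and 3 stood 2-fold or more lower, against 22.8% and 5.69% of measured genes. All 25 mitosis genes were higher, and of 13 measured replication genes 3 were higher and 3 lower. Cenpf, a kinetochore gene, and Tpx2, a spindle assembly gene, were higher by log2 4.797 and 4.63, and Mcm3 was lower by -1.66. With classes of 20 or more cells admitted to the edgeR fit, 26 of 38 genes were called higher in skeletal muscle-like than in fibroblast-like cells. Over all genes that fit called 804 of 11257 higher and 1881 lower. Fibroblast markers summed to 1051, 1805 and 1083 CPM in these cells with 6, 6 and 5 of 7 detected, and their part in the result was not tested.

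T or innate lymphoid-like cells (39, 273 and 674 cells) stood apart by Cenpa, the centromeric histone gene. Cenpa stood at 753, 349 and 201 CPM there against 37.9, 29.7 and 7.11 CPM in fibroblast-like cells. The 266 neonatal UMIs came from 38 of 39 cells, and the later ones from 117 of 273 and 180 of 674 cells. Rrm1 stood at 51.0, 149 and 53.8 CPM in them, and Pcna at 73.6, 85.4 and 106 CPM. Kif23, a kinesin gene of cytokinesis, was highest in mast-like cells, at 98.6 CPM in the neonatal and 123 CPM in the 3 week library, with UMIs in 36 of 91 and 9 of 64 cells.

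Members also differed in how closely they followed the rest of the set over these 24 profiles. The Pearson correlation of log2(CPM + 1) with the sum of the other 39 genes was highest for Top2a (0.87), Cdk1 (0.79) and Ccna2 (0.79) and lowest for Cdc6 (-0.04), Pcna (0.01) and Kif23 (0.24). The profiles share libraries and differ in cell number and depth, so the values are a description. Of the genes outside every list, Ngdn (0.85), Pwp1 (0.82), Asf1b (0.81), Map2k2 (0.80), Ska1 (0.79), Casc5, Gart and Shcbp1 (0.77 each) and Eif4a3 (0.76) were among those with the highest correlation with the sum, out of 13437 genes. Ska1 and Casc5 are genes of the kinetochore, and Asf1b encodes a histone chaperone.

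Fibroblast-like cells were divided by markers of dermal subtypes. The dermal sheath-like gate (Acta2, Tagln, Itga8, Myl9, Col11a1, Mylk and Cnn1), which marks contractile fibroblasts around the hair follicle, took 478, 291 and 103 cells. Papillary-like cells (Ntn1, Apcdd1, Axin2, Lrig1 and others) numbered 2031, 223 and 191, interstitial progenitor-like cells (Pi16, Dpp4 and others) 349, 2552 and 2442, and reticular-like cells (Dlk1, Mgp and others) 385, 671 and 267. A further 1952, 835 and 1153 cells passed no subtype gate and served as the reference. A gate needs detected markers, and the reference cells were shallower, with medians of 7147.5, 7700 and 5715 UMIs. Papillary-like cells had medians of 9280, 13144 and 12730 UMIs and dermal sheath-like cells 9889, 9326 and 5804 UMIs. The part of depth in the fold changes against this reference was not tested. Many cells were at the minimum of 3 markers, among them 991, 99 and 104 papillary-like and 155, 42 and 43 dermal sheath-like cells.

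Dermal sheath-like cells held more of the set than cells with no subtype. Their mitosis sum was 629, 1210 and 26.7 CPM against 213, 209 and 13.3 CPM, and their replication sum 503, 415 and 136 against 231, 135 and 87.4 CPM. The edgeR fit called 10 of 40 genes higher and 0 lower, against 4.09% of tested genes higher and 3.06% lower, and the median log2 fold change was 1.68. A further 28 genes were higher at an unadjusted edgeR p under 0.05 without passing the adjustment. Over all genes 3084 of 12461 were under that limit, in either direction.

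Top2a stood at 91.2, 109 and 0 CPM in the dermal sheath-like cells (log2 2.36, SE 0.591, edgeR adjusted p = 0.0358). Gins2 stood at 24.8, 18.2 and 5.08 CPM (log2 1.40, SE 0.270, edgeR adjusted p = 0.0125) and Rrm2 at 57.1, 46.4 and 6.35 CPM (log2 1.39, SE 0.292, edgeR adjusted p = 0.0173). Top2a was among 16 of the 40 genes with no UMI in the 2 month dermal sheath-like cells, where 21 genes were higher than in the reference, against 70.6% of measured genes, while all 40 were in the neonatal and 3 week libraries, against 54.8% and 73.6%.

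Bub1 (log2 2.30), Kif11 (2.17), Mki67 (2.04), Nusap1 (2.00), Mcm6 (1.37), Rrm1 (1.12) and Cks2 (1.07) were the other calls. Kif11 encodes the kinesin that pushes spindle poles apart, and Nusap1 bundles spindle microtubules. The smallest fold changes were those of Ccne1 (0.13, adjusted p = 0.871), Pcna (0.59, 0.132) and Mcm4 (0.69, 0.162). Outside the set 8 of 35 mitosis and 2 of 20 replication genes were higher, and the kinase inhibitor gene Cdkn1a was lower (-0.87).

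The calls were 21 without the neonatal library and 0 without either of the others. Over all genes the calls higher were 892 of 12344 without the neonatal, 7 of 12457 without the 3 week and 63 of 12634 without the 2 month library. Mural markers summed to 104, 1653 and 1032 CPM in dermal sheath-like cells (7, 7 and 6 of 7 detected) and skeletal muscle markers to 11.2, 1549 and 846 CPM (3, 4 and 3 of 6), Des being in both lists, and their part in the result was not tested.

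Papillary-like cells had high levels in the neonatal library. Their mitosis sum was 1017 CPM and their replication sum 470 CPM there, and Cenpf, Ube2c, Cenpa, Ccna2, Pbk, Cdca8 and Cdca3 were among the 10 genes that led them over the other fibroblast-like cells. Top2a stood at 95.03, Ube2c at 84.3, Cenpf at 46.8 and Ccnb1 at 29.2 CPM in these cells. At 3 weeks and 2 months the sums were 554 and 276 CPM for mitosis and 173 and 110 CPM for replication. Keratinocyte markers summed to 78.0, 827 and 1493 CPM in the gate with 10 of 10 detected each time, and its leading 10 genes held Krt1, Cst6 and Defb6 at 3 weeks and Krt77, Krt14 and Krt5 at 2 months, so the papillary-like values are not compared between ages.

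Against cells with no subtype, edgeR called 0 of the 40 genes and 0 of 12461 genes in all (0%). The fold changes of all 40 were above 0 with a median log2 of 2.06, the highest being Ccnb1 (2.79), Cenpf (2.77) and Ube2c (2.76). At an unadjusted edgeR p under 0.05 30 of 40 were higher, against 739 of all 12461 genes in either direction. The lowest adjusted p was 0.306, and DESeq2 called 7 of the 40 higher, against 26 of 13399 genes. In interstitial progenitor-like and reticular-like cells edgeR called 0 of 40, with 2 and 1 genes at an unadjusted p under 0.05 and lowest adjusted p-values of 0.144 and 0.201, against 2.9% and 4.57% of tested genes higher and 2.48% and 3.05% lower. Over all genes 2366 and 2767 of 12461 were under the unadjusted limit, in either direction, so the 2 and 1 were no more frequent than among all genes.

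Across ages, fibroblast-like cells had most of the 40 genes highest in the neonatal library and all 40 lowest at 2 months, with Cdc6 depending on the scaling, while the replication genes differed more than the mitosis genes at the first step and less at the second. The neonatal library was highest for 36 of the 40 genes, against 55% of measured genes, and the 2 month library lowest for 40, against 45.8%. Tyms, Mki67, Plk1 and Ube2c were highest at 3 weeks, of which Tyms was highest in the neonatal library once mitochondrial, ribosomal-protein and haemoglobin genes were left out of the total. With TMM scaling Aurka, Cenpf and Ccne2 were also higher at 3 weeks than in the neonatal library, by log2 0.17, 0.03 and 0.0039. Cdc6 was higher at 2 months than at 3 weeks by 0.0050 with TMM and by 0.54 with CPM averaged over cells.

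Replication genes were lower at 3 weeks than in the neonatal library, while mitosis genes differed less. Of 33 genes at 10 CPM or more in at least 1 of these libraries none (0) stood 2-fold or more above the neonatal level and 10 stood 2-fold or more below it, against 8.34% and 10.9% of measured genes. The 10 were 9 of 13 measured replication genes and 1 of 20 measured mitosis genes, Stmn1, and over all 40 genes the count was also 10. The median log2 ratio was -1.11 for replication and -0.49 for mitosis genes, against -0.19 over all genes, a median that trimmed-mean (TMM) scaling moved to 0.02 and the total without mitochondrial, ribosomal-protein and haemoglobin genes to -0.44.

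Mcm6 stood at 36.9 CPM in the neonatal library and 11.4 CPM at 3 weeks (log2 -1.70, interval -1.82 to -1.58). Mcm2 stood at 22.8 and 7.81 CPM (-1.55), Rrm2 at 36.3 and 12.9 CPM (-1.49) and Mcm5 at 17.8 and 7.59 CPM (-1.23). These replication genes and Ccne1, at 19.4 and 9.24 CPM (-1.07), were lower with every scaling used.

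Top2a stood at 52.1 and 30.9 CPM (-0.75), Cdk1 at 42.5 and 24.3 CPM (-0.81) and Birc5 at 46.9 and 30.6 CPM (-0.62), none of them 2-fold apart. Ccnb1 stood at 14.6 and 10.5 CPM (-0.47). Mki67 was higher at 3 weeks, at 21.9 and 26.0 CPM (log2 0.25, interval 0.14 to 0.35), as was Ube2c at 41.7 and 52.6 CPM (0.33, 0.26 to 0.41), and both remained above 0 with every scaling, at 0.01 and 0.10 at the least. With TMM scaling 4 replication and 0 mitosis genes were 2-fold lower, and without the mitochondrial, ribosomal-protein and haemoglobin genes 5 mitosis genes were.

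From 3 weeks to 2 months the mitosis genes were lower together, and most replication genes were lower as well. Of 26 measured genes 21 were lower by 2-fold or more and 0 higher, against 3.07% and 3.48% of measured genes. The 21 were 18 of 18 measured mitosis genes and 3 of 8 measured replication genes, and over all 40 genes 25 of 25 and 9 of 15. The median log2 ratio was -2.73 for the measured mitosis and -0.87 for the measured replication genes, against -0.06 over all genes. Over all 25 and all 15 it was -2.71 and -1.34, so replication genes as a list were also lower again at this step.

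Ube2c stood at 52.6 CPM at 3 weeks and 5.56 CPM at 2 months (log2 -3.24), Mki67 at 26.0 and 3.31 CPM (-2.97) and Ccnb1 at 10.5 and 2.12 CPM (-2.31). Stmn1 stood at 93.0 and 23.9 CPM (-1.96) and Cks2 at 47.4 and 13.5 CPM (-1.81). Bub1, which was under the 10 CPM limit, stood at 4.38 and 0.301 CPM, from 313 and 17 UMIs. Replication genes ranged widely over the same step. Rrm2 differed by -1.79, Mcm6 by -0.93 and Mcm4 and Mcm7 by -0.41 each, while Mcm5 (-2.64), Ccne1 (-2.60), Uhrf1 (-2.34) and Mcm2 (-1.93), which were under the 10 CPM limit, differed as much as several mitosis genes. Pcna differed least of the measured members, at 30.9 and 26.4 CPM (-0.23, interval -0.33 to -0.14). Cdc6 stood at 2.51 and 2.44 CPM.

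The other replication genes of fibroblast-like cells lay between these. Mcm3 stood at 22.5, 10.4 and 4.53 CPM in the neonatal, 3 week and 2 month libraries, Mcm4 at 26.6, 13.7 and 10.3 CPM and Mcm7 at 24.6, 12.2 and 9.22 CPM. Gins2 stood at 17.0, 7.67 and 3.03 CPM, Rrm1 at 30.4, 21.2 and 12.1 CPM and Uhrf1 at 12.6, 5.73 and 1.13 CPM. All of these were lower in each older library, and Tyms alone was not, at 27.3, 30.6 and 11.1 CPM. Ccne2, at 3.39, 2.97 and 0.779 CPM, stayed under the 10 CPM limit in each library, as did Cdc6. So did the mitosis genes Aurka (6.62, 6.50 and 1.01 CPM), Bub1, Bub1b (8.14, 6.41 and 1.73 CPM), Plk1 (6.27, 7.83 and 1.31 CPM) and Kif23 (8.82, 6.40 and 1.01 CPM), so 33 of the 40 genes were measured against the neonatal library.

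Among the remaining mitosis genes the order was the same. Ccna2 stood at 24.03, 17.5 and 2.28 CPM, Ccnb2 at 23.98, 17.7 and 2.88 CPM and Cdc20 at 24.6, 21.0 and 3.59 CPM. Cdca3, a trigger of mitotic entry, stood at 32.6, 18.4 and 2.81 CPM, and Tpx2 at 20.9, 17.6 and 2.41 CPM. The 2 month level was the lowest of the 3 in each of them, and the neonatal and 3 week levels lay within 2-fold of each other. The kinetochore gene Cenpf differed least between the first libraries among them, at 20.9 and 18.6 CPM, and stood at 3.38 CPM at 2 months.

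In the fibroblast-like cells that passed no subtype gate, 7 of 23 measured genes were at least 2-fold lower at 3 weeks than in the neonatal library, all of them replication genes, against 12.8% of measured genes. At 2 months 13 of 16 measured genes, and 32 of all 40, were at least 2-fold lower than at 3 weeks, against 2.32%.

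**Figure D2:**
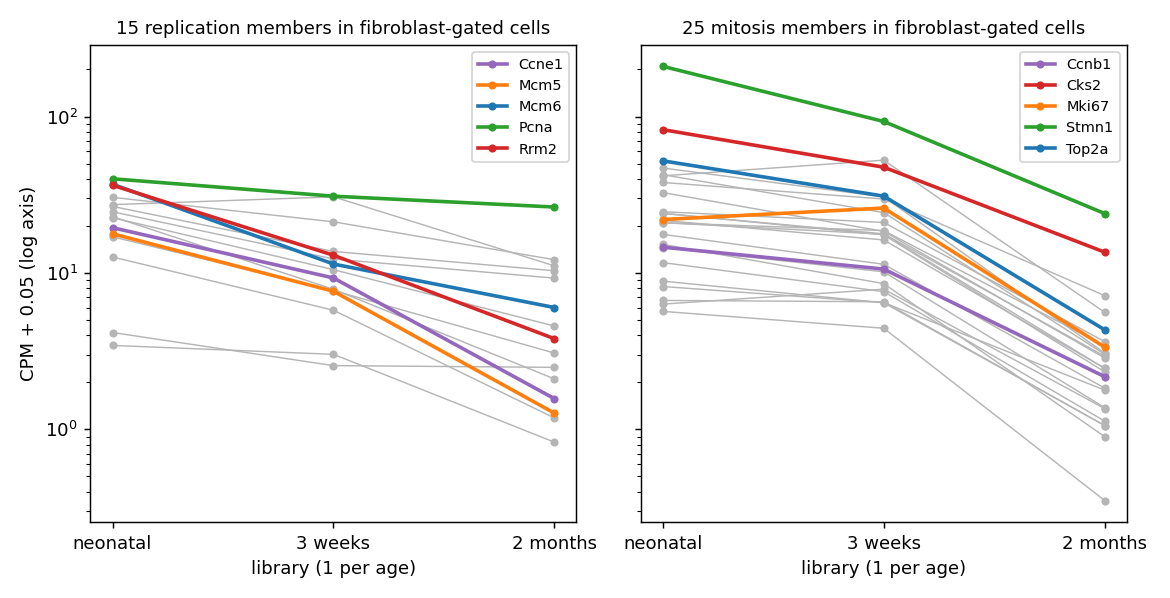
CPM plus 0.05 (log axis) of each of the 15 replication genes (left) and 25 mitosis genes (right) in fibroblast-like cells of the 3 libraries, 1 line per gene, with named genes coloured. Most replication lines drop at both steps, most mitosis lines drop more between 3 weeks and 2 months than before, and Pcna stays between 26.4 and 39.97 CPM.

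The other cell cycle lists were counted in the same way in fibroblast-like cells. At 3 weeks 7 of 15 measured further replication genes were at least 2-fold lower than in the neonatal library, among them Rfc3 (log2 -1.73), a clamp loader gene, Gmnn (-1.31) and Chaf1a (-1.28), and 0 of 19 further mitosis genes. At 2 months 10 of 12 measured further mitosis genes were at least 2-fold lower than at 3 weeks, among them Fam64a (-3.21), Ckap2l (-2.88), Tacc3 (-2.75) and Racgap1 (-2.60). Pttg1, the securin gene, went the other way (0.29). The thymidine kinase gene Tk1 (-3.09), the replication-dependent histone gene Hist1h2ap (-3.26) and the ligase gene Lig1 (-1.50) were also lower at 2 months.

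Inhibitors, cyclins and kinases that act before S phase differed one by one. Cdkn1c, the p57 inhibitor gene, was lower at 3 weeks than in the neonatal library (-1.79) and lower again at 2 months (-1.05). Cdkn1a, the p21 inhibitor gene, was higher at 2 months than at 3 weeks, at 607 against 299 CPM (1.02). Cdk6 (-1.94) and Ccnd3 (-1.12) were lower at 3 weeks than in the neonatal library.

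Keratinocyte-like cells had higher sums of both groups than fibroblast-like cells at each age. Their make-up differed between libraries, with 60 of 269, 72 of 1253 and 73 of 1583 cells suprabasal-like and 2, 103 and 245 upper follicle-like, and the neonatal class includes the basal-like cells led by Tagln, Acta2 and Myl9. The part of this in the values below was not tested. Of the 40 genes 25 were highest at 3 weeks and 15 in the neonatal library, against 25.6% and 40.1% of measured genes, and 37 were lowest at 2 months, against 32.4%. Between the neonatal and 3 week libraries 2 mitosis genes of 37 measured members, Nusap1 (log2 1.28, from 10.9 to 26.5 CPM) and Ube2c (1.02, from 60.6 to 123 CPM), were at least 2-fold higher, and 2 replication genes, Uhrf1 (-1.10) and Ccne1 (-1.001), at least 2-fold lower, against 7.7% and 5.9% of measured genes. The median log2 ratio was -0.66 for replication and 0.44 for mitosis genes, but the direction of 12 of the 40 genes depended on the scaling.

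At 2 months 17 of 36 measured members were at least 2-fold lower than at 3 weeks and 0 higher, against 1.3% and 1.63% of measured genes. These were 14 mitosis and 3 replication genes, with the largest ratios for Ccnb2 (-1.67), Mcm5 (-1.30) and Mcm3 (-1.28). Top2a stood at 72.7 and 44.0 CPM (-0.72), Cdk1 at 44.2 and 23.9 CPM (-0.88) and Birc5 at 46.1 and 22.3 CPM (-1.05). Pcna (0.12) and Stmn1 (-0.23) differed little, and the sign for Cks2 (-0.07) depended on the scaling. Top2a thus stood at 44.0 CPM in keratinocyte-like and 4.28 CPM in fibroblast-like cells at 2 months.

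Within the fibroblast subtypes the step from neonatal to 3 weeks was not the same. Interstitial progenitor-like cells had 15 of 24 measured genes at least 2-fold higher and 0 lower at 3 weeks, against 6.97% and 8.86% of measured genes, and 28 of all 40. Of their 15 measured mitosis genes 14 were higher, with Ube2c at 5.51 and 44.4 CPM, Top2a at 8.96 and 25.5 CPM and Mki67 at 5.28 and 21.99 CPM. Reticular-like cells had 10 of 25 measured genes higher and 1 lower, against 9.63% and 5.5%, and 20 and 1 of all 40, with Ube2c at 3.94 and 51.0 CPM and Top2a at 13.1 and 23.1 CPM. The leading 10 genes of the reticular-like gate held Mgp and Thbs4 in both libraries. Acta1, Mylpf and Myl1 were among them in the neonatal library alone, and Dlk1, Vtn and Myoc at 3 weeks alone. The part of this in the reticular-like step was not tested. Dermal sheath-like cells had 11 of 38 higher and 0 lower, against 10.3% and 4.43%, all 11 of them mitosis genes, with Cenpf at 14.9 and 69.4 CPM and Ube2c at 42.6 and 132 CPM. The leading genes of that gate included Ednrb, Tnnt2 and Tnmd in the neonatal library and Myh11, Cnn1 and Des at 3 weeks. Its summed mural markers differed too, as given above, so its make-up was not the same, and the part of this in the step was not tested.

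These subtypes had 2-fold higher mitosis genes at 3 weeks, while the fibroblast-like class as a whole had 0. The class held 2031 papillary-like of 6454 cells in the neonatal library and 223 of 5664 at 3 weeks, and the part of this in the class values was not tested.

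From 3 weeks to 2 months the interstitial progenitor-like, reticular-like and dermal sheath-like cells shared 1 direction. Interstitial progenitor-like cells had 17 of 21 measured genes at least 2-fold lower (35 of all 40, against 3.36% of measured genes), reticular-like cells 17 of 22 (31 of all 40, against 4.8%) and dermal sheath-like cells 36 of 38 (37 of all 40, against 9.58%). In the 103 dermal sheath-like cells at 2 months Ube2c, Top2a, Birc5 and Mki67 had no UMI. Set against a floor of 3 counts in that library, their log2 ratios were at most -5.11, -4.84, -4.70 and -4.39.

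Among other classes, macrophage-like cells had 26 of 32 measured genes at least 2-fold lower at 2 months than at 3 weeks, against 7.55% of measured genes. T or innate lymphoid-like cells had 10 of 32, against 3.23%.

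The share of cycling cells was described by the cells with at least 4 of the 40 genes detected after each cell was thinned to 3000 UMIs. In fibroblast-like cells it was 11.6% in the neonatal library (736 of 6350 cells, exact Clopper-Pearson interval 10.8 to 12.4%), 6.00% at 3 weeks (336 of 5597, 5.40 to 6.66%) and 0.651% at 2 months (30 of 4611, 0.439 to 0.928%). Shallower cells, 104, 67 and 246 of them, were left out. Without thinning the shares were 30.3%, 15.9% and 5.17%, in the same order.

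Keratinocyte-like cells gave 26.8% (69 of 257), 15.8% (198 of 1251) and 9.17% (141 of 1537), and 79.6%, 57.9% and 53.2% without thinning. Suprabasal-like cells, which should not divide, gave 1 cell in each library (1.75% of 57, 1.39% of 72 and 1.49% of 67), with medians of 19570.5, 15684.5 and 12822 UMIs before thinning against 8850.5, 12193 and 10364 in fibroblast-like cells. The 2 month fibroblast-like share lay below the suprabasal-like share of that library (interval 0.0378 to 8.04%), a reference of 1 cell of 67, so the share by itself was not above this background. Of those 30 fibroblast-like cells, 15 had 10 or more of the genes. Top2a, itself among the genes that chose the cells, stood at 382 CPM in the 30 and 0.756 CPM in the rest. Such values describe the chosen cells and do not show that the 2 month share lay above the background. The neonatal fibroblast-like share lay above the neonatal interval (0.0444 to 9.39%). The 3 week share of 6.00% lay above the suprabasal-like share and within its interval (0.0352 to 7.50%), which 72 cells leave wide. Unthinned, 65.0%, 47.2% and 46.6% of suprabasal-like cells had 4 or more of the genes.

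**Figure D3:**
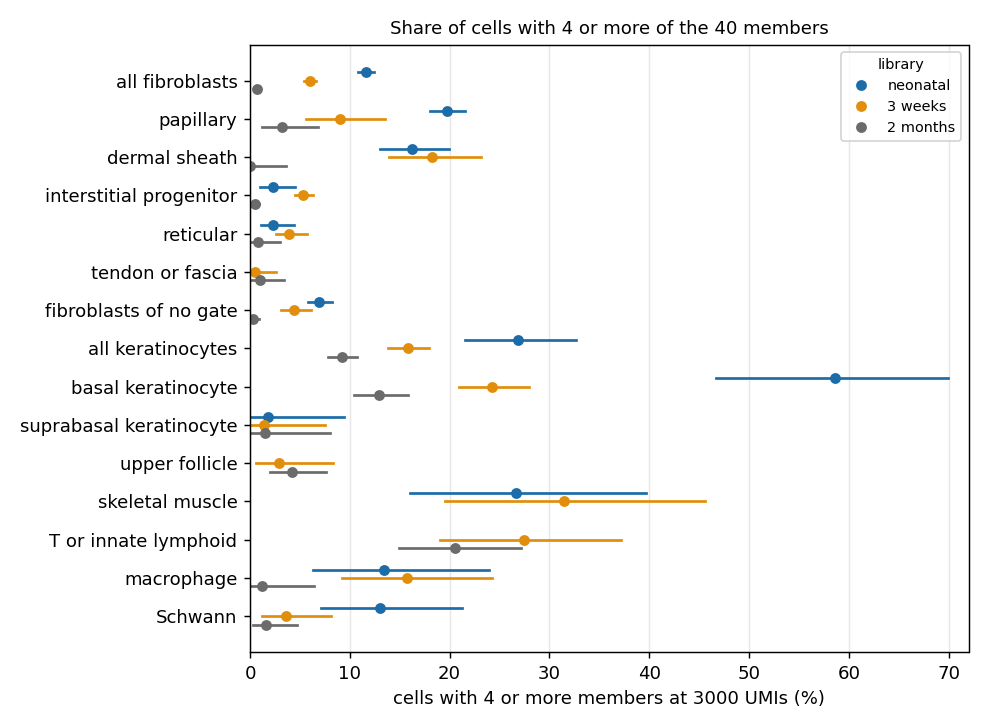
Percent of cells with at least 4 of the 40 genes detected at 3000 UMIs, by class and library, with 95% exact intervals. Basal-like cells lie highest in the neonatal library alone (58.7%), and other classes lie above them in both older libraries. The fibroblast-like share is lower in each older library (11.6%, 6.00% and 0.651%).

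Basal-like cells gave 58.7%, 24.3% and 13.0%, and skeletal muscle-like cells 26.7% (16 of 60) and 31.5% (17 of 54) in the neonatal and 3 week libraries. T or innate lymphoid-like cells gave 27.5% (28 of 102) at 3 weeks and 20.6% (37 of 180) at 2 months, but 171 and 494 shallower cells were left out. Schwann-like cells, with their high Stmn1, gave 13.0%, 3.57% and 1.65%, and macrophage-like cells 13.4%, 15.7% and 1.19%. The 2 month macrophage-like share was also below the suprabasal-like 1.49%, but that reference rests on very few cells, so their order is not read.

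Among fibroblast subtypes dermal sheath-like cells gave 16.3% and 18.2% and then 0 of 101 cells, a count that leaves room for shares of up to 2.97% by 3 counts of 101 (3.59% by the exact interval used for the other shares). Interstitial progenitor-like cells gave 2.33%, 5.34% and 0.5%, reticular-like cells 2.34%, 3.95% and 0.833%, and cells with no subtype 6.93%, 4.43% and 0.305%. Papillary-like cells gave 19.8% in the neonatal library.

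The number of genes per cell was spread widely. In thinned neonatal fibroblast-like cells 2340 had none of the 40 genes, 381 had 3, 164 had 4 and 329 had 10 or more. At 3 weeks 3355 had none, 123 had 3, 42 had 4 and 199 had 10 or more, and at 2 months 3195, 36, 8 and 15. Cells just at the limit of 4 were thus 164 of 736, 42 of 336 and 8 of 30.

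The fibroblast-like cells with 4 or more of the genes held most mitosis transcripts of their class but a smaller part of the replication transcripts. They held 92.0%, 94.0% and 79.1% of the UMIs of the 23 mitosis genes and 57.6%, 49.1% and 9.28% of the replication UMIs. For Top2a the part was 92.7%, 95.6% and 82.6%, and for Pcna 49.4%, 31.8% and 4.404%. Since the genes themselves chose these cells, such values describe them and are no test. The cells were also deeper, with medians of 11611.5, 16976.5 and 16757 UMIs against 8642, 12058 and 10759 in the rest. Cells called as doublets, whose part in these values was not tested, were 9.78%, 0.298% and 6.67% of them against 5.17%, 2.17% and 3.54%. Keratinocyte markers summed to 75.4, 371 and 4112 CPM in them against 73.5, 564 and 599.9 CPM, with 10 of 10 detected each time, and the 2 month cells were 30, so the part of keratinocyte RNA in the 2 month values was not tested.

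In the neonatal library 54.5% of these cells were papillary-like, against 29.0% of the rest. At 3 weeks 40.5% were interstitial progenitor-like (45.8% of the rest) and 15.8% dermal sheath-like (4.52% of the rest). At 2 months 12 of the 30 were interstitial progenitor-like and 6 papillary-like.

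Genes outside the set also differed between these cells and the rest of their class in the same library. Over all measured genes 7.37%, 9.63% and 20.6% were 2-fold or more higher and 3.54%, 2.5% and 5.22% 2-fold or more lower. Of 36 further mitosis genes 35 were at least 2-fold higher in each library, led by Hmmr (log2 9.04, 10.17 and 10.67), with Pttg1 the exception (0.28, 0.11 and 0.85). Further replication genes were higher in 21 of 21, 20 of 20 and 18 of 18, with Tk1 at 163, 146 and 141 CPM against 1.55, 0.580 and 0.144 CPM. Histone and chromatin genes were higher in 10 of 10, 10 of 10 and 9 of 9, with Hist1h2ap at log2 4.78, 6.68 and 6.66.

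Of the RB, E2F and DREAM factors 8 of 12, 9 of 11 and 6 of 10 were higher. Foxm1, the transcription factor of mitosis genes, stood at 74.7, 70.4 and 74.4 CPM against 1.53, 1.07 and 0.630 CPM, whereas Rbl2, the pocket protein gene of resting cells, differed by -0.24, 0.02 and -0.12. Checkpoint and repair genes were higher in 6 of 7, 7 of 8 and 9 of 9, with Rad51ap1 at log2 5.82, 6.96 and 10.05 and Wee1 lowest at 0.97, 0.95 and 1.63.

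Genes that act before S phase differed less. Cdk2 (log2 1.15, 1.88 and 1.57) and Cdk4 (1.08, 1.14 and 1.15) were at least 2-fold higher in each library, and the cyclin gene Ccnd2 stood at -0.41, -1.05 and -0.90. Among the inhibitors Cdkn2c was higher (1.38, 2.53 and 2.38), and Cdkn1c was lower in the neonatal and 2 month libraries and not at 3 weeks (-1.18, 0.44 and -1.30).

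Fibroblast matrix genes were lower or little different. At least 2-fold lower were 6 of 14, 1 of 13 and 3 of 14, with none higher. The elastin gene Eln stood at log2 -1.57, -1.46 and -1.33 and the collagen gene Col1a1 at -1.05, -0.78 and -1.26. The summed fibroblast markers, which include collagens, stood at 22296, 72258 and 53725 CPM against 39172, 111525 and 105291 CPM.

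**Figure D4:**
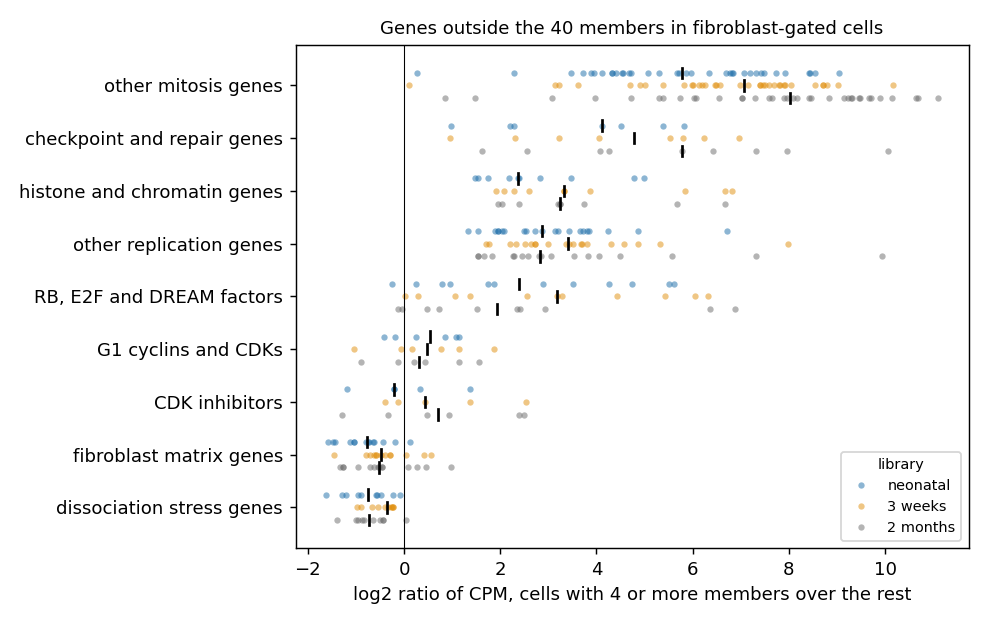
Log2 ratio of CPM in fibroblast-like cells with at least 4 of the 40 genes over the rest of their class, for genes of 9 other lists in each library, with 1 point per gene and ticks at the medians. Further mitosis, replication, histone and checkpoint genes lie mostly above 1, and most matrix genes below 0.

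Keratinocyte-like cells with at least 4 of the 40 genes, 69, 198 and 141 cells in the neonatal, 3 week and 2 month libraries, differed from the rest of their class in mitosis and replication genes and in others. Of the further mitosis genes 34 of 35, 35 of 36 and 34 of 35 were at least 2-fold higher, and of the further replication genes 20 of 21, 18 of 19 and 13 of 17, against 15.1%, 8.59% and 6.46% of measured genes, while 7.89%, 4.4% and 4.06% of measured genes were 2-fold or more lower. Of the 6 cyclins and kinases that act before S phase 4, 0 and 0 were at least 2-fold higher. The 40 genes chose these cells as well, so the counts describe them and are no test. These cells held 86.7%, 95.3% and 88.2% of the UMIs of the 23 mitosis genes in their class and 63.7%, 56.6% and 34.6% of the replication UMIs. Pcna stood at 97.4, 93.3 and 96.2 CPM in them and 49.8, 44.0 and 53.9 CPM in the rest. The neonatal cells had a lower median depth than the rest of their class (14374 against 18166.5 UMIs), and the later ones a higher one (17450.5 against 11359 and 14498 against 10426). Keratinocyte markers summed to 16289, 35749.8 and 29147 CPM in them against 60019, 42076 and 32987 CPM in the rest, and fibroblast markers to 484, 545 and 387 CPM against 187, 543 and 335 CPM, with 10 of 10 and 7 of 7 detected each time. Their part in the values was not tested.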

How the data were processed

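Single-cell RNA was measured in 3 libraries of mouse dorsal skin. The deposited matrices hold counts of UMIs per gene and barcode, made by the authors. The submitters' processing notes name Cell Ranger 3.0.2, Seurat 2.0 and mm10. The 40 genes and all lists were chosen with earlier results of these data known.

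Cells were filtered at 300 genes, 500 UMIs and 10% mitochondrial UMIs, and gated by the class with most markers detected (at least 50%, fewest 3, lead of 20 percentage points, or 40%, 3 and 10 for fibroblast subtypes). Doublets were called with Scrublet (scanpy 1.11.5) and kept, at 6% of the neonatal cells (highest scores, since its own threshold marked 0.0253%), 2.37% and 3.73%. Ages were compared by CPM of summed counts, with a 2-fold rule among genes at 10 CPM in at least 1 library and no test. Counts of classes with 50 cells in every library were summed and tested with edgeR 4.0.16 (R 4.3.3; TMM, filterByExpr, quasi-likelihood, library block) over 3 libraries, with Benjamini-Hochberg adjustment over all genes. Libraries pair the classes, since the class sums of a library come from 1 dissociation. With the library as a block, p-values measure how far the differences between classes vary from library to library. The libraries differ in age, so this spread holds age differences too. Nothing says that the libraries came from separate animals. Values in full are given for Top2a, Mki67, Cdk1, Ccnb1, Birc5, Mcm6, Mcm5, Pcna, Rrm2, Ccne1, Stmn1 and Cks2 and for the 3 members with the largest and smallest change, for up to 4 genes of each other list with the largest change and for the 10 outside all lists most like the set, of which 1 is not reported here. Further members were named after their values were seen. The procedure was tested on simulated data. Shares used seeded thinning in Python 3.11.15 (numpy 2.4.6, scipy 1.17.1, pandas 2.3.3). Alternatives included DESeq2 1.42.0, other scalings and thinning depths.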

Additional observations from a re-analysis of the deposited data

How the results depend on the processing

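The libraries are 1 per age, so ages have no replicate error, and intervals and limits from 0 counts cover counting error only. Gates of under 100 cells rest on few UMIs. Of the results that answer a comparison, 322 values were within their limits under an alternative and 78 moved. Of single genes, the direction between ages depended on the scaling for 4 and 1 of the 40 in fibroblast-like cells (3 weeks against neonatal, and 2 months against 3 weeks) and for 12 and 1 in keratinocyte-like cells. No paired analysis was possible because each age had 1 library for the comparisons between ages, and for classes the pairing by library was the main design.

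Shares depended on the depth and the rule for a cycling cell. For fibroblast-like cells in the neonatal, 3 week and 2 month libraries they were 30.3%, 15.9% and 5.17% without thinning, 17.7%, 7.86% and 1.16% at 5000 UMIs, 7.15% and 4.63% (the first 2) at 1500 UMIs, 17.6%, 8.20% and 1.43% for 3 genes, 7.84%, 4.84% and 0.434% for 6 genes, 7.28%, 3.04% and 0.239% for at least 2 replication and 2 mitosis genes, and 8.80% and 5.27% (the first 2) without Stmn1, Pcna and Cks2. For keratinocyte-like cells they were 79.6%, 57.9% and 53.2% without thinning, 41.2%, 23.2% and 18.3% at 5000 UMIs, 16.4%, 10.4% and 4.20% at 1500 UMIs, 37.0%, 24.6% and 17.7% for 3 genes, 19.1%, 11.2% and 4.23% for 6 genes, 19.5%, 7.83% and 5.20% for at least 2 of each kind, and 12.2% and 4.36% (3 weeks and 2 months) without Stmn1, Pcna and Cks2. The order of the ages was the same under each of these rules.

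Between the neonatal and 3 week fibroblast-like cells, replication genes at least 2-fold lower were 4 with TMM, and mitosis genes 0 with TMM, 2 with CPM averaged over cells and 5 when scaled without mitochondrial, ribosomal-protein and haemoglobin genes. Between 3 weeks and 2 months, replication genes at least 2-fold lower were 8 with a limit of 5 CPM and 9 with no limit. In keratinocyte-like cells at 3 weeks against neonatal, mitosis genes at least 2-fold higher were 1 when scaled without those genes, 0 with the mean per cell, 1 without called doublets and 5 with a mitochondrial limit of 5%. Replication genes at least 2-fold lower there were 1 with TMM, 4 with the mean per cell, 1 without called doublets and 0 at the limit of 5%. The cause of these moves was not tested. Among fibroblast-like cells with 4 or more genes in the neonatal library, stress genes at least 2-fold lower were 5 without called doublets, an alternative chosen after seeing the data.

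Without the library as a replicate block, edgeR called 0 genes higher in keratinocyte-like cells, 2 higher and 0 lower in macrophage-like cells, 0 lower in Schwann-like cells and 0 higher in dermal sheath-like cells. Over all genes these fits called 1888 of 12668 higher, 1655 higher and 2277 lower, 1469 lower, and 38 of 12461 higher, in the same order. With gates of 20 or more cells, 2 were lower in Schwann-like and 3 higher in dermal sheath-like cells. DESeq2 called 7 genes higher in papillary-like cells. Leaving out 1 library at a time gave 1 to 30 higher in keratinocyte-like cells, 1 to 5 higher and 1 to 1 lower in macrophage-like cells, 0 to 2 higher and 0 to 2 lower in Schwann-like cells and 0 to 21 higher in dermal sheath-like cells, with fewer samples in each fit. The calls over all genes in those fits are given with each class above.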
